A study of Rattus norvegicus with 200 samples.

Results

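The genes described here are the potassium channel genes whose rat symbols begin with Kcn. They code for pore-forming subunits and for the auxiliary subunits that ride with them. Members were the Kcn rows of the count table with a mean of at least 1 CPM (counts scaled to library size) over all libraries, and 71 of the 94 Kcn rows met this among 20361 genes in all. By family, 32 were voltage-gated, 12 were inward rectifiers, 10 were two-pore channels, 10 were auxiliary subunits and 7 were activated by calcium or sodium. The libraries came from brain of adult male wild-type Wistar rats, an outbred strain, and the labels give their cell type as microglia. The diet was either chow or HFD (high-fat), and food was there at all hours (ad libitum), in the dark phase only (dark-feeding) or in the light phase only (light-feeding). The 6 treatments held 34 libraries (chow ad libitum), 33 (chow dark-feeding), 33 (chow light-feeding), 34 (HFD ad libitum), 33 (HFD dark-feeding) and 33 (HFD light-feeding). Each was sampled at Zeitgeber time (ZT, hours after lights-on) 2, 6, 10, 14, 18 and 22, with 5 to 7 libraries at each treatment and time. No agent or gene alteration is named for any group, and the HFD groups differ from the chow groups by diet alone as labelled.

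Potassium channels let potassium leave or enter a cell along its electrochemical gradient, and so set the resting membrane potential and end the action potential. Voltage-gated channels open on depolarisation, inward rectifiers and two-pore channels hold the resting potential, and calcium- or sodium-activated channels follow the concentration of those ions inside the cell. Microglia, the resident immune cells of the brain, are known for a small set of these channels, which bear on surveillance, migration and inflammasome activation. Neurons and astrocytes use most of the rest.

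Library totals ran from 3.78 M to 11.6 M counts with a median of 7.55 M, and the members took 0.508 to 0.876% of each library (median 0.770%). The label of microglia was set against marker genes. Microglial markers were present, with medians of 60.2 CPM for Cx3cr1, 71.6 CPM for P2ry12, 41.5 CPM for Tmem119 and 299 CPM for Csf1r, and Siglech was near 0 (median 0.256 CPM). The 18 microglial markers summed to 845 to 2502 CPM over the libraries, while 14 neuronal markers summed to 3792 to 5890 CPM, 9 markers of cerebellar granule neurons to 3717 to 9266 CPM and 12 oligodendrocyte markers to 8824 to 26850 CPM. Each library therefore held RNA of several cell types, and a lower value of a gene in bulk RNA cannot tell fewer cells of a type from less RNA per cell. Another 6 libraries stood apart from the rest (median correlation 0.943 to 0.961 with the other libraries, against 0.965 or more for those): 3 of chow dark-feeding at ZT 14, and 1 each of chow ad libitum at ZT 14, chow light-feeding at ZT 18 and HFD ad libitum at ZT 6. The labels do not tie libraries to single animals, and the p-values given here therefore speak only of spread among libraries, which may be technical. The title series of the libraries follows the diet, so diet and any batch that follows it cannot be told apart.

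Levels were compared between genes by deposited FPKM, which is per transcript length. The most abundant member was Kcnt1, a sodium-activated channel subunit, at a median of 266 FPKM (range 146 to 335 over all libraries). Next came Kcnc1, a fast delayed rectifier of neurons that fire at high rates, at 238 FPKM (125 to 307). Lower in the order, Kcnk1, a two-pore channel, had 89.2 FPKM (59.6 to 114), and Kcnd2, the A-type channel of dendrites, 87.3 FPKM (46.2 to 125). The order of Kcnk1 and Kcnd2 lies inside their ranges. Kcnh3, a voltage-gated channel of forebrain neurons, had a median of 71.3 FPKM (37.3 to 90.1). Below it followed Kcnip3, a calcium-binding partner of A-type channels (52.0 FPKM), Kcnj12, an inward rectifier (44.3 FPKM), Kcnk9, an acid-sensitive two-pore channel (36.7 FPKM), and Kcnj9 and Kcnj3, subunits of the G-protein-gated inward rectifier (34.6 and 33.9 FPKM). Of the 71 members, 33 had a median of 10 FPKM or more and 6 were under 1 FPKM.

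The members closest to the lower limit were Kcnj13 (mean 1.14 CPM), Kcna5 (1.40 CPM) and Kcns3 (1.44 CPM), and the Kcn rows just outside it were Kcns2 (0.775 CPM), Kcnh5 (0.751 CPM) and Kcnk15 (0.708 CPM). Between libraries of the same treatment and time, the median member had a coefficient of variation of 14.6%. Kcnip3 (7.50%) and Kcnc1 (7.82%) were among the steadiest. Kcnip2, another partner of A-type channels, was the most variable at 45.2%, with Kcnj13 at 44.7% and Kcnn4 at 35.2%. Kcnip2 ran from 0 to 31.5 CPM with a median of 13.2 CPM, and 3 libraries were under 1 CPM, 23 under 5 CPM and 25 over 20 CPM. Its highest library held 290 counts and its lowest 0.

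**Figure D1:**
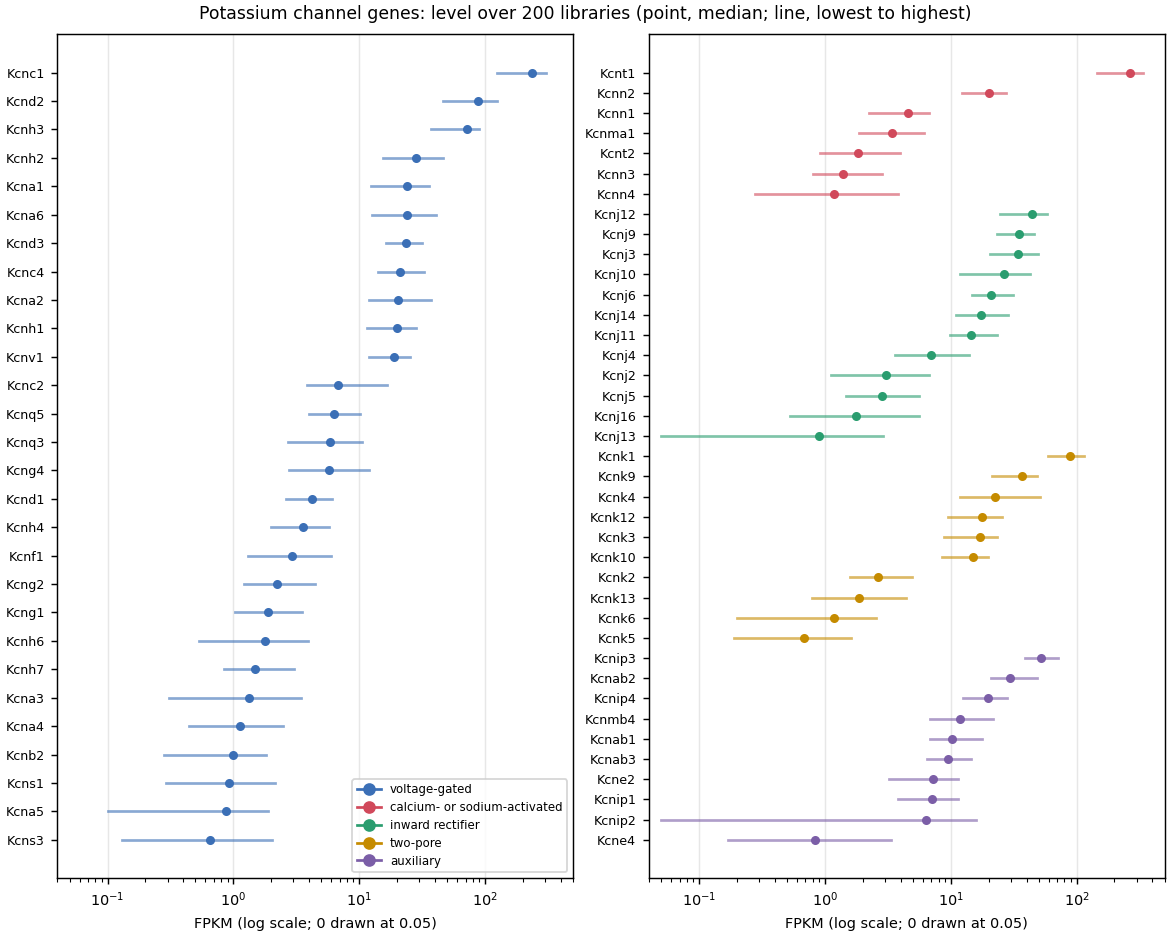
Level of the members in deposited FPKM (log axis, values of 0 drawn at the left edge), grouped and coloured by family, with a point for the median over all libraries and a line from the lowest to the highest library. Kcnt1 and Kcnc1 have the highest medians drawn, most ranges of neighbours within a family overlap, and Kcnip2 and Kcnj13 have lines that reach 0.

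The channels for which microglia are known were low beside these, with medians from 0.88 FPKM (Kcna5) to 3.4 FPKM (Kcnma1). Their levels follow in CPM, which is not per transcript length. Kcnma1, the large-conductance calcium-activated channel, and Kcnj2, an inward rectifier, are shared with neurons and other cells, and had medians of 17.7 CPM (9.65 to 31.6) and 14.9 CPM (7.49 to 26.3). Kcnk13, the two-pore channel that sets the microglial resting potential, had a median of 3.82 CPM (1.86 to 7.98). Kcnn4, the intermediate-conductance calcium-activated channel of microglia and other immune cells, had 1.92 CPM (0.574 to 6.46), and Kcnk6, a two-pore channel tied to inflammasome activation, 1.91 CPM (0.284 to 4.10). Kcna3 and Kcna5, voltage-gated channels of activated microglia, had 1.75 CPM (0.409 to 4.19) and 1.35 CPM (0.159 to 2.92). All 7 were found in the 200 libraries.

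The members were then set against the marker genes of 8 cell types. For each type, the mean log2 CPM of its markers was scaled to an SD of 1 after removal of the mean of each treatment and time, and the slope of each member on that score was fitted over all libraries. A slope is thus a change in log2 per SD of the score among libraries of the same treatment and time, and it does not use the comparisons of diet, schedule or time. Members with an adjusted p under 0.05 (edgeR quasi-likelihood test, Benjamini-Hochberg over all 14393 genes tested) are called below. With the neuronal score, 61 members were called, or 85.9% of them against 58.3% of all genes. Of these, 49 rose (69.0% of members, 30.4% of all genes) and 12 fell (16.9% and 27.9%). With the oligodendrocyte score 63 were called (88.7%, against 56.8% of all genes), and there 13 rose (18.3% and 27%) and 50 fell (70.4% and 29.7%). Most members thus rose with the neuronal markers and fell with the oligodendrocyte markers. With the granule neuron score 54 were called (76.1% and 61.4%), with 34 rising (47.9% and 30%) and 20 falling (28.2% and 31.4%). With the microglial score 55 were called (77.5% and 58.6%), with 16 rising (22.5% and 28.4%) and 39 falling (54.9% and 30.2%). Members that rose with the markers of the labelled cell type were thus fewer than those that fell. The Purkinje score had 41 (52% of all genes), 17 rising (25.2%) and 24 falling (26.7%), and the astrocyte score 39 (45.9%), 13 rising (22%) and 26 falling (23.9%). The endothelial score had 44 (52.6%), 10 rising (26.4%) and 34 falling (26.2%), and the mural score 38 (45.4%), 9 rising (22.2%) and 29 falling (23.2%). With limma on log2(FPKM + 0.1), the Purkinje score had 22 rising (30.5% of all genes) and 19 falling (11.1%). All genes leaned to rising in that fit, so the turn in these counts is not particular to the members.

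The steepest slopes on the neuronal score were those of the silent modifier subunit Kcng4 (0.24 ± 0.01, log2 per SD ± SE), its relative Kcns3 (0.23 ± 0.04) and the A-type channel Kcna4 (0.21 ± 0.03). Kcna2, an axonal delayed rectifier (0.14), Kcnd2 (0.13) and Kcnj12 (0.13) rose most with the granule neuron score. With the oligodendrocyte score Kcnk5 (0.20), an alkaline-activated two-pore channel, and Kcne4 (0.19), an auxiliary subunit, were among the steepest. Kcnj10, the main inward rectifier of glia (0.18), Kcna6 (0.18), Kcnj2 (0.16), Kcnq3 (0.15) and Kcna3 (0.13) rose with it as well. With the microglial score Kcnn4 was steepest (0.28 ± 0.03), followed by Kcnj5, a G-protein-gated inward rectifier subunit (0.19), and Kcnj13, an inward rectifier of choroid plexus (0.18), then Kcnk13 (0.17), Kcnk6 (0.12), Kcna3 (0.09), Kcna5 (0.08) and Kcnj2 (0.07). Kcnma1 fell by 0.09 on the log2 scale, so 6 of these 7 channels of microglia rose with the microglial markers. That score is not particular to microglia. Among other markers tested, 12 of 12 oligodendrocyte, 12 of 13 astrocyte, 11 of 11 endothelial and 10 of 10 T and NK cell markers rose with it. All 9 granule neuron markers fell. Kcna3 and Kcnj2 were steeper on the oligodendrocyte score. The cells from which these channels came were not tested. Kcnj16, the glial partner of Kcnj10, had the steepest slope of the astrocyte score (0.30) and of the Purkinje score (0.22). Kcnj13 had the steepest of the endothelial (0.30) and mural (0.24) scores. The steepest positive slope of a member fell on the neuronal score for 26 members, the granule neuron score for 23, the oligodendrocyte score for 10, the microglial score for 6, the endothelial score for 3, the astrocyte score for 2 and the Purkinje score for 1. With the other 7 scores as covariates, 44 members were called for the neuronal score (36.4% of all genes), 40 for the granule neuron score (25.1%), 32 for the oligodendrocyte score (32.8%), 18 for the microglial score (24.2%; 12 rising against 12.5% of all genes and 6 falling against 11.7%, so that the balance turned), 4 for the Purkinje score (5.74%), 1 for the astrocyte score (1.34%) and 0 for the endothelial (0.174%) and mural (0.639%) scores.

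**Figure D2:**
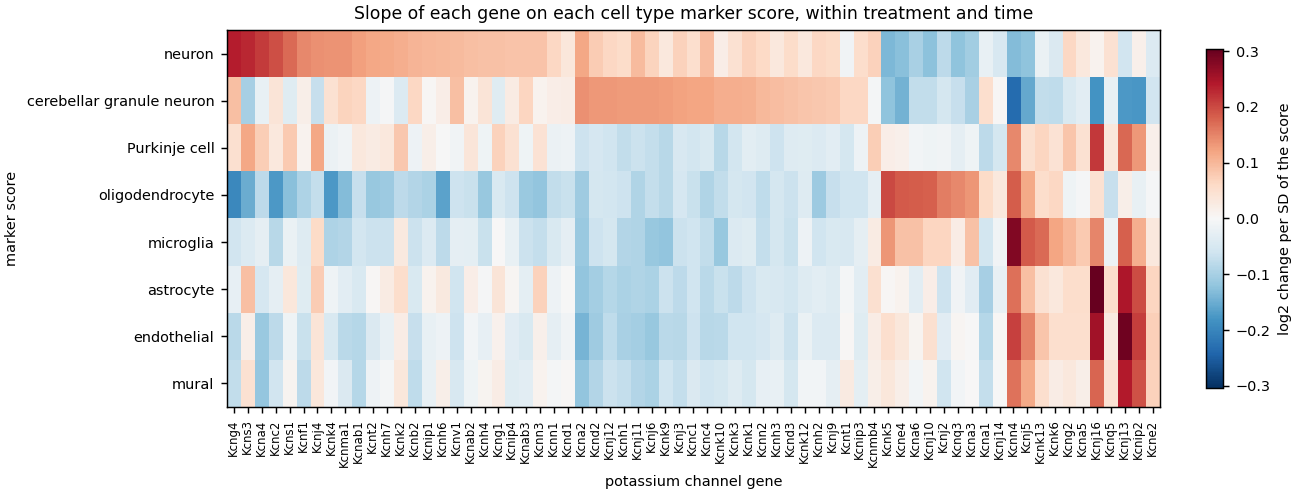
Heat map of the slope of members (columns) on each of the 8 cell type marker scores (rows), in log2 change per SD of the score, red for rising and blue for falling. Members are ordered by the score on which each rises most, and many that rise with the neuronal or granule neuron score fall with the oligodendrocyte score.

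The first comparison was HFD against chow within each schedule, adjusted for ZT. Under ad libitum feeding 12 members were called, or 16.9% of them against 20.2% of all genes tested, 8 higher with HFD (11.3% of members, 9.44% of all genes) and 4 lower (5.63% and 10.8%). Under dark-feeding it was 31 (43.7% and 45.8%), with 22 higher (31.0% and 22.6%) and 9 lower (12.7% and 23.2%). Under light-feeding it was 33 (46.5% and 50.3%), with 26 higher (36.6% and 24.4%) and 7 lower (9.86% and 25.8%). The share of members called was near that of all genes, and more of the called members were higher than lower in each schedule. With limma on log2(FPKM + 0.1) the gap between these counts was smaller. It had 18 higher (14.3% of all genes) and 15 lower (27.8%) under dark-feeding, and 22 higher (16.8%) and 11 lower (29.5%) under light-feeding. All genes leaned to lower in these fits, so the smaller gap is not particular to the members. Of the 32 voltage-gated members, 4 were higher and 1 lower under ad libitum, 13 and 1 under dark-feeding and 15 and 1 under light-feeding. Their median log2 fold changes were 0.02, 0.09 and 0.16. The 12 inward rectifiers had 2 and 0, 5 and 2, and 6 and 3. The 10 two-pore channels had 2 and 1, 2 and 1, and 3 and 0. The 7 calcium- or sodium-activated channels had 0 and 0, 2 and 2, and 2 and 1, and the 10 auxiliary subunits none higher and 2, 3 and 2 lower. The rest of each family was not called, and the shares of all genes beside these counts are those given above. Over all 71 members the median log2 fold change was -0.01 under ad libitum, 0.03 under dark-feeding and 0.06 under light-feeding, beside -0.02, -0.01 and -0.01 over all genes.

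8 members were higher with HFD in all 3 schedules (Kcna1, Kcna6, Kcnd3, Kcnj10, Kcnj2, Kcnk10, Kcnk9 and Kcnq3) and 1 was lower (Kcnab2, a beta subunit of Kcna channels). The share of all genes called in all 3 schedules was not counted, so these overlaps describe the members and are not a trait particular to them. Kcnq3, a subunit of the M-current channel that damps repetitive firing, had a lowest, median and highest level of 15.6, 27.4 and 49.7 CPM in chow dark-feeding and of 27.6, 36.5 and 54.8 CPM in HFD dark-feeding. The HFD group lay higher, and the ranges overlapped. Its log2 fold change was 0.42 ± 0.07 (SE; edgeR adjusted p = 9.56e-07) there, 0.31 ± 0.06 (4.9e-04) under ad libitum and 0.22 ± 0.07 (0.00422) under light-feeding. Kcna1, an axonal delayed rectifier, rose by 0.37 ± 0.06 under dark-feeding (edgeR adjusted p = 2.23e-07), and its close relatives Kcna6 and Kcna3 by 0.34 and 0.32. Kcnj10 had medians of 43.4 CPM in chow light-feeding (31.5 to 71.7) and 56.5 CPM in HFD light-feeding (42.1 to 75.2), which overlap. Its log2 fold changes were 0.25, 0.29 and 0.32 over the schedules. Kcnab2 had 101 CPM in chow ad libitum (76.6 to 134) and 91.6 CPM in HFD ad libitum (73.3 to 112), with log2 fold changes of -0.20, -0.20 and -0.17.

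Under light-feeding the largest rises were those of Kcnb2 and Kcnd2. Kcnb2, a delayed rectifier of neuronal cell bodies, ran from 1.99 to 8.14 CPM in chow light-feeding with a median of 5.12 CPM, and from 4.05 to 9.79 CPM in HFD light-feeding with a median of 7.25 CPM. The ranges overlapped, and the log2 fold change was 0.43 ± 0.08 (edgeR adjusted p = 4.55e-06), or 34.6% higher. Kcnd2 ran from 179 to 439 CPM (median 274) in chow light-feeding and from 301 to 479 CPM (median 370) in HFD light-feeding, a log2 fold change of 0.40 ± 0.05 (edgeR adjusted p = 1.28e-08). Kcnj2 rose by 0.38, Kcna3 by 0.35, Kcna2 by 0.35 and the neuronal voltage-gated channel Kcnh1 by 0.33. Kcna3, Kcnd2 and the others of this group were higher under dark-feeding too, where Kcnd2 rose by 0.29 ± 0.05 (edgeR adjusted p = 6.09e-07).

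13 members were lower with HFD under at least 1 schedule, among them 4 auxiliary subunits, 3 inward rectifiers and 3 voltage-gated channels. The like share of all genes was not counted. Kcnt1, the most abundant member, fell by 0.09 ± 0.04 on the log2 scale under dark-feeding (edgeR adjusted p = 0.0439) and by 0.15 ± 0.04 under light-feeding (5.16e-04). Kcnj13 ran from 0.493 to 3.11 CPM in chow light-feeding (median 1.35) and from 0.397 to 2.69 CPM in HFD light-feeding (median 0.871), and it fell by 0.59 ± 0.14 on the log2 scale (edgeR adjusted p = 3.9e-04). Under ad libitum feeding it did not differ by the test (0.04 ± 0.17). Kcne2, an auxiliary subunit of choroid plexus channels, fell by 0.33 ± 0.05 under light-feeding (edgeR adjusted p = 7.72e-08), from a median of 13.2 CPM (9.14 to 17.8) to 10.6 CPM (6.47 to 14.4). Ttr, the choroid plexus gene for transthyretin, was lower there too, with medians of 83.9 CPM in chow light-feeding and 46.8 CPM in HFD light-feeding. It was also lower under ad libitum feeding (64.4 CPM in chow and 47.6 CPM in HFD), where Kcnj13 did not differ. The part of Ttr in these results was not tested. Kcnj16 fell by 0.54 ± 0.10 under light-feeding (edgeR adjusted p = 4.59e-06), with ranges of 3.31 to 11.8 CPM in chow and 1.73 to 6.24 CPM in HFD. The marker scores (all but the microglial score), with treatment and time means kept, then served as covariates. With them the log2 fold change of Kcnj16 turned to 0.17 ± 0.11 under light-feeding (edgeR adjusted p = 0.34) and 0.25 ± 0.12 under dark-feeding (0.31). All 13 astrocyte markers tested were lower with HFD under both schedules. Kcnj5 fell by 0.32 ± 0.07 under dark-feeding (edgeR adjusted p = 7.91e-05) and by 0.41 ± 0.07 under light-feeding. Kcnk13 fell by 0.24 under ad libitum and by 0.25 under dark-feeding. Kcnn4 fell by 0.35 ± 0.14 under dark-feeding (edgeR adjusted p = 0.0308), with a median of 2.39 CPM in chow and 1.79 CPM in HFD. Kcnh6, a voltage-gated channel, fell by 0.36 ± 0.12 under ad libitum feeding (edgeR adjusted p = 0.0207), Kcng2, a silent subunit, by 0.26 under dark-feeding and Kcnq5, an M-current subunit, by 0.21 under light-feeding.

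Marker genes moved with diet too. Under light-feeding, 8 of 17 microglial markers tested were lower with HFD, all 13 astrocyte markers were lower, 8 of 12 oligodendrocyte markers were higher, 6 of 9 granule neuron markers were higher and 2 lower, and 6 of 14 neuronal markers were lower and 2 higher. Lower there too were 9 of 11 endothelial, 6 of 6 mural and 5 of 7 Purkinje markers. Under dark-feeding it was 10 of 17 microglial markers lower, 13 of 13 astrocyte markers lower, 8 of 12 oligodendrocyte markers higher and 3 of 9 granule neuron markers higher, with 6 of 14 neuronal markers lower and 1 higher, and 7 of 11 endothelial, 5 of 6 mural and 5 of 7 Purkinje markers lower. Under ad libitum feeding 6 of 17 microglial markers were lower, 3 of 12 oligodendrocyte markers higher and none of 13 astrocyte markers called. Among members grouped by their steepest score, the 10 of the oligodendrocyte score had 5, 6 and 6 higher with HFD (ad libitum, dark-feeding, light-feeding) and none lower, and the 23 of the granule neuron score had 3, 12 and 15 higher and 0, 1 and 1 lower. The 6 of the microglial score (Kcnn4, Kcnj5, Kcnk13, Kcnk6, Kcng2 and Kcna5) had none higher and 1, 4 and 1 lower, and the 26 of the neuronal score had 0, 4 and 5 higher and 2, 2 and 1 lower. This grouping was chosen from the data and is a description. With the marker scores as covariates, 11, 2 and 7 members were called (9.99%, 0.841% and 10.9% of all genes). The microglial score was left out of these covariates, so the fit does not adjust for it. Unlike the scores of the slopes, these covariates kept the means of each treatment and time. They thus carry differences of diet, schedule and time themselves. Of the main calls, Kcnab2, Kcnd3, Kcnj10, Kcnk10, Kcnk9 and Kcnq3 kept theirs under ad libitum feeding, Kcnd2 and Kcnv1 under dark-feeding, and Kcna2, Kcnb2, Kcne2, Kcng4, Kcnj10, Kcnt1 and Kcnv1 under light-feeding. Under light-feeding Kcna3 then had -0.01 and Kcnab2 0.01, on the other side of 0. Libraries of a treatment and time with adjoining numbers in their titles form 79 runs. With each run taken as 1 unit, 0, 13 and 27 members were called (0%, 20.6% and 34% of all genes), all of them among the main calls. Without the 6 libraries apart, 12, 28 and 35 were called (18.8%, 42.5% and 51% of all genes).

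**Figure D3:**
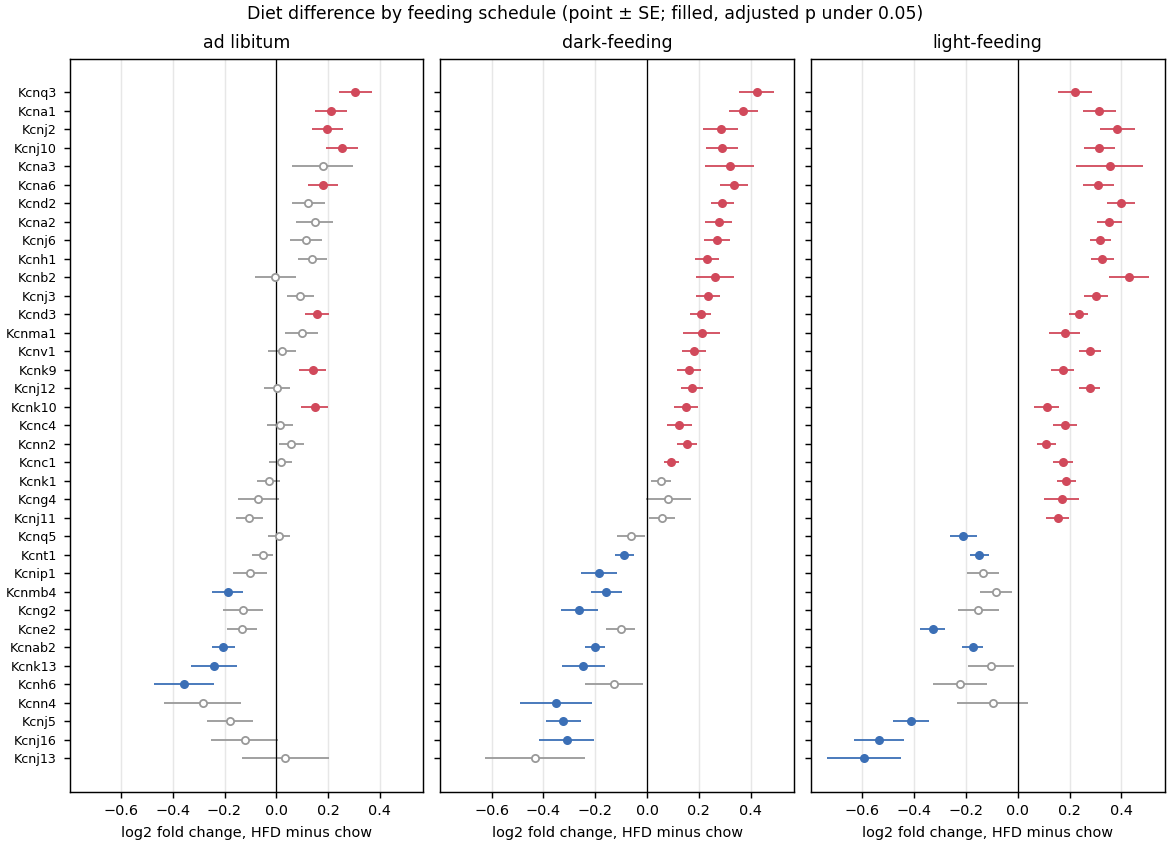
Log2 fold change of HFD against chow (points, with bars of 1 SE) for members called under at least 1 schedule, one panel per schedule, with filled points where the adjusted p was under 0.05. Kcnq3, Kcna1 and Kcnj10 are filled and above 0 in all 3 panels, and Kcnab2 is filled and below 0 in all 3.

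The schedules were compared within each diet. In chow, no member was called for dark-feeding against ad libitum (0% of all genes; 4 members at an unadjusted p under 0.05), for light-feeding against ad libitum (1.6%; 13 members) or for light-feeding against dark-feeding (0%; 3 members). The members with the smallest p were Kcnj13 and Kcnq5 for dark-feeding against ad libitum, with log2 fold changes of 0.47 (edgeR adjusted p = 0.38) and 0.11 (0.391). For light-feeding against ad libitum they were Kcnj13 at 0.57 (edgeR adjusted p = 0.0608) and Kcnj12 at -0.14 (0.0623). In HFD, light-feeding against ad libitum called 9 members (10.4% of all genes), with 7 higher (5.5%) and 2 lower (4.85%). Among them were Kcnk3 0.18, Kcnd2 0.15, Kcnc4 0.14, Kcnj12 0.13, Kcnj9 0.13 and Kcnip3 0.09 higher, and Kcnj5 and Kcne2 lower by 0.22 and 0.17. Dark-feeding against ad libitum called none (4.52%; 5 at an unadjusted p under 0.05), nor did light-feeding against dark-feeding (0.0834%; 2). HFD ad libitum has 28 of 34 libraries with title numbers up to 46 and the other HFD groups none. With title numbers above 46 only, no member was called (0% of all genes), nor with runs as the unit (0%). The first of these fits kept 6 HFD ad libitum libraries, all at ZT 10, 14 or 18. With ZT as a factor, its estimates rest on those times alone, so it does not repeat the main comparison like for like. With title numbers above 46 most of the members named lay on the other side of 0, with Kcnd2 at -0.20, Kcnj12 at -0.13, Kcnc4 at -0.11, Kcnk3 at -0.09, Kcnj9 at -0.04 and Kcne2 at 0.14. Schedule and title order therefore cannot be told apart in HFD ad libitum.

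Whether the diet difference depends on the schedule was tested by the interaction of diet with light-feeding against ad libitum. It called 8 members (9.49% of all genes), with 7 higher (5.68%) and 1 lower (3.81%). Kcnb2 had 0.43 ± 0.12 (edgeR adjusted p = 0.00893), Kcnd2 0.28 ± 0.09 (0.0258), Kcnj12 0.28 ± 0.06 (0.00226) and Kcnj11, the pore of the ATP-sensitive channel, 0.25 ± 0.07 (0.00937). The silent subunit Kcnv1 had 0.25, and Kcnj3, Kcnk1 and Kcnq5 had 0.21, 0.21 and -0.22. Beside this, 11 of 13 astrocyte markers, 5 of 6 mural markers and 5 of 7 Purkinje markers were lower by the same test, and no microglial or oligodendrocyte marker was called. The interaction with dark-feeding called 0 members (0.875% of all genes, 4 at an unadjusted p under 0.05), and Kcnj12 and Kcnb2 had the smallest p, with 0.16 (edgeR adjusted p = 0.202) and 0.26 (0.234). With runs of title numbers as the unit no member was called for either interaction (0% of all genes in both), and with the marker scores as covariates 1 was (Kcnj12, light-feeding; 1.02% of all genes, and 0% for dark-feeding). With the title number as a spline the interaction with light-feeding called none (0%), and Kcnd2 (-0.10), Kcnj3 (-0.07), Kcnb2 (-0.03) and Kcnv1 (-0.01) turned to the other side of 0.

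Daily time courses were tested as a 24 h rhythm, as a cosine and sine term together. Over all 200 libraries 30 members were called, or 42.3% of them against 41% of all genes. Their peak-to-trough changes had a median of 0.12 in log2 over all 71 members, beside 0.11 over all genes. The peaks of the 30 fell in ZT 0 to 4 for 7 members, 4 to 8 for 5, 8 to 12 for 4, 12 to 16 for 1, 16 to 20 for 6 and 20 to 24 for 7. Among the largest changes, Kcnj14, an inward rectifier, had 0.47 with a peak at ZT 19.2 (edgeR adjusted p = 4.03e-16), and Kcnn4 0.47 at ZT 8.3 (edgeR adjusted p = 0.00223). Other large changes were those of Kcne4 (0.40, ZT 16.1), the silent subunit Kcns1 (0.36, ZT 0.9), Kcna2 (0.35, ZT 3.0), Kcne2 (0.34, ZT 10.0) and the sodium-activated Kcnt2 (0.32, ZT 5.4). With runs as the unit, 5 of the 30 were called (16.4% of all genes), among them Kcna2, Kcne2, Kcnj14 and Kcnt2, with edgeR adjusted p between 2.45e-07 and 0.0333. These 5 kept the call with the marker scores as covariates, where 26 members were called (27.7% of all genes) and 17 of them were among the 30. Without the 6 libraries apart 31 were called (42% of all genes).

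**Figure D4:**
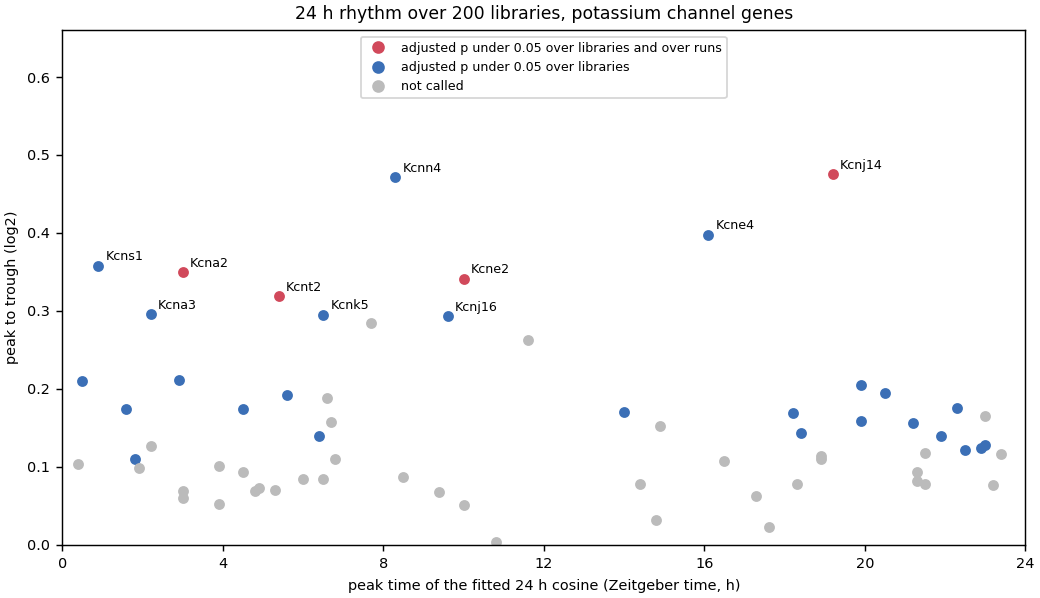
Peak-to-trough change in log2 of the fitted 24 h cosine over all 200 libraries against its peak time in ZT hours, one point for each member drawn, coloured by whether the rhythm was called over libraries and runs, over libraries only, or not. Of the members drawn as called both ways, Kcnj14 has the largest change, with a peak at ZT 19.2.

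The median level over all treatments of Kcnj14 was 35.9 CPM at ZT 10 (range 30.7 to 45.0) and 55.0 CPM at ZT 18 (30.0 to 68.9). Kcna2 had 252 CPM at ZT 2 (126 to 389) and 205 CPM at ZT 14 (124 to 277). Ranges overlapped in both, since treatments and libraries spread too.

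The 250 bases before the annotated start of 3 of these 5 genes are shown, as their rhythms held in each setting named above and their promoters are in the RefSeq table (GRCr8), which holds 46 of the 71 members in 51 entries. Motifs searched on both strands were the E-box CACGTG, the D-box TTATGTAA, the retinoid-related half-site AGGTCA and the GC box GGGCGG, and capitals mark matches. Kcnj14 lies on the minus strand (chr1:105437259-105437508), Kcna2 on the plus strand (chr2:197393280-197393529) and Kcnt2 on the plus strand (chr13:54215057-54215306).
Kcnj14: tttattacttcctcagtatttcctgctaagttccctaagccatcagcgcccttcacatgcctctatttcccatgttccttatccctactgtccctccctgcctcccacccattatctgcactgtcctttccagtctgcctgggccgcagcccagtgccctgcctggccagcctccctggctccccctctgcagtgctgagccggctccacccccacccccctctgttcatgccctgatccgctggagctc
Kcna2: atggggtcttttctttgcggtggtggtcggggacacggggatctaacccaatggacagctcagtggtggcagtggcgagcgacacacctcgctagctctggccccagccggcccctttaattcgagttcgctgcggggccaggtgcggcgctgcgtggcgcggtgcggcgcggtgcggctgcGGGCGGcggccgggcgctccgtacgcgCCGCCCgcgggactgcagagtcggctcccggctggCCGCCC
Kcnt2: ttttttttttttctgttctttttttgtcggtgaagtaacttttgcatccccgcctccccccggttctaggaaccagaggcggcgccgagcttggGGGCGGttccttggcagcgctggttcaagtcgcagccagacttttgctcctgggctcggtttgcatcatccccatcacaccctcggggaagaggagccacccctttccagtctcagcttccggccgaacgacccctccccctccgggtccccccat
GC content was 59.6% for Kcnj14, 72.4% for Kcna2 and 59.2% for Kcnt2. Kcna2 held 3 GC boxes, with first bases 68, 41 and 6 before the start, Kcnt2 held 1 at 156 before the start, and Kcnj14 held none of the 4 motifs in this window. Of the 51 member entries 2 held an E-box (Kcne4 and Kcnh4), against 5.59% of all 33465 promoters, 0 a D-box (0.828%), 4 the half-site (14.1%) and 27 a GC box (30.5%). A match is a description of letters, not a site.

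Within treatments the 24 h rhythm of Kcnj14 was called in 4 of 6. In chow dark-feeding its level ran from 30.7 to 36.5 CPM at ZT 10 (32.7 ± 2.16, mean ± SD, n = 6) and from 53.6 to 68.9 CPM at ZT 18 (61.9 ± 5.80, n = 6), with no overlap. The peak-to-trough change was 0.87 with a peak at ZT 19.4 (edgeR adjusted p = 5.41e-08). HFD ad libitum had 31.2 to 37.9 CPM at ZT 10 (34.8 ± 2.55, n = 5) and 48.4 to 62.4 CPM at ZT 18 (57.1 ± 5.21, n = 6), again without overlap, and a change of 0.76 with a peak at ZT 18.1 (edgeR adjusted p = 1.09e-08). Chow ad libitum had 0.62 (peak ZT 18.4; edgeR adjusted p = 4.36e-04) and HFD dark-feeding 0.49 (peak ZT 19.1; 2.03e-05). Light-feeding was not called, with 0.19 in chow (edgeR adjusted p = 0.602) and 0.21 in HFD (0.478). The 24 h cosine follows only a single rise and fall, so no call does not mean a level steady over time. HFD light-feeding had 46.2 to 59.7 CPM at ZT 2 and 35.1 to 42.6 CPM at ZT 10, without overlap. Chow light-feeding had 43.8 to 52.7 CPM at ZT 2 and 33.0 to 37.5 CPM at ZT 14, also without overlap. In chow light-feeding, Kcnj14 had 48.0 ± 3.19 CPM at ZT 2, 44.8 ± 7.71 at ZT 6, 36.4 ± 1.98 at ZT 10, 35.4 ± 1.84 at ZT 14, 51.7 ± 10.7 at ZT 18 and 34.0 ± 4.78 at ZT 22 (mean ± SD, n = 5, 5, 6, 5, 6 and 6). Its mean was thus high at ZT 18 and again at ZT 2, with a low value between them. The lowest library at ZT 18 (38.2 CPM) stood apart from the rest and was the only library there with a title number above 46. At ZT 22 those with title numbers up to 46 had 26.0 and 32.3 CPM. In the comparisons of rhythm by schedule, chosen after seeing the data, Kcnj14 differed between light-feeding and ad libitum in chow (0.60; edgeR adjusted p = 0.0353) and in HFD (0.79; 2.09e-04), and between light-feeding and dark-feeding in chow (0.80; 5.42e-04) and in HFD (0.48; 0.0139). None of these 4 was called with runs as the unit (edgeR adjusted p 0.577, 0.347, 0.109 and 0.168), and the first missed the threshold without the 6 libraries apart (0.0504). Over all members these 4 comparisons called 9 (11.3% of all genes), 2 (10.5%), 31 (36.8%) and 22 (21.6%), listed in the same order.

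**Figure D5:**
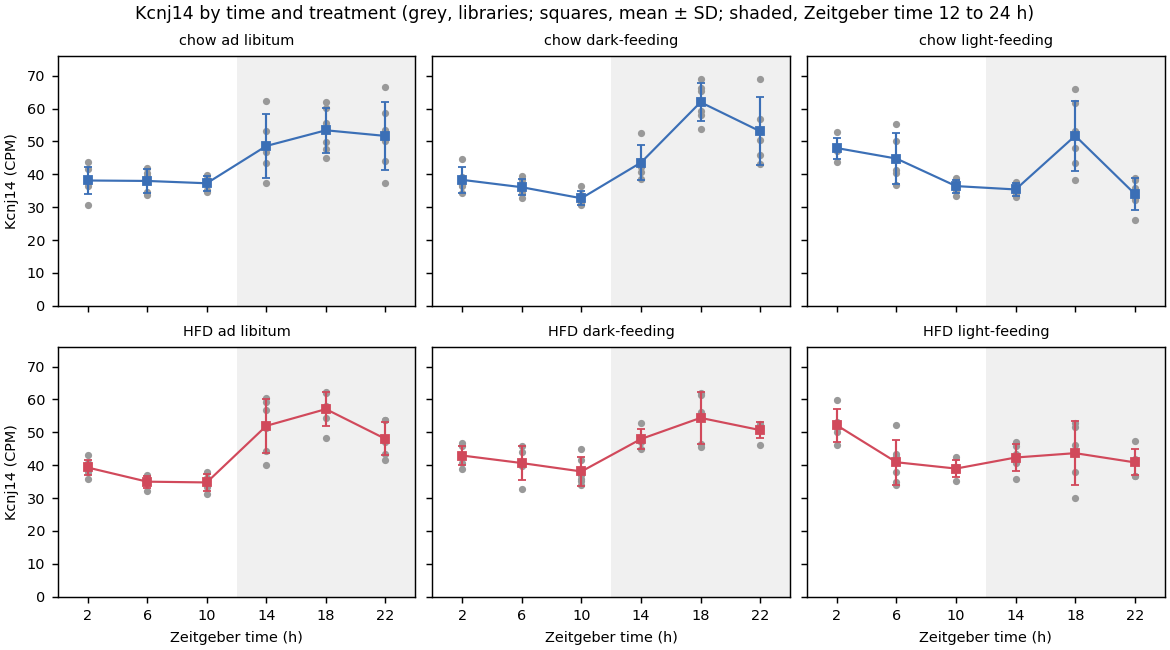
Level of Kcnj14 in CPM against ZT in hours, one panel for each of the 6 treatments, with grey points for libraries, squares and bars for the mean ± SD, and ZT 12 to 24 shaded. In chow dark-feeding Kcnj14 at ZT 18 lies above every library at ZT 10.

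Called members differed in number between treatments: 6 in chow ad libitum (4.47% of all genes), 10 in chow dark-feeding (22.3%), 24 in chow light-feeding (19.7%), 11 in HFD ad libitum (19.2%), 17 in HFD dark-feeding (27%) and 2 in HFD light-feeding (0.778%). Without the 6 libraries apart these became 4 (4.11%), 10 (20.4%), 30 (26.1%), 14 (22.1%), 17 (27%) and 2 (0.778%). With runs as the unit, most calls were lost: 1 (0.347%), 1 (0.75%), 0 (0%), 1 (0.257%), 6 (4.54%) and 0 (0%) were called in the same order of treatments. Kcnj14 was the one member called in chow ad libitum, chow dark-feeding and HFD ad libitum and was among the 6 in HFD dark-feeding. Over libraries, 25 of the 71 members were called in none of the 6 treatments, 29 in 1, 13 in 2, 1 in 3 and 3 in 4. In chow ad libitum Kcna2 (0.85, peak ZT 2.8), Kcnj14 and Kcnma1 (0.59, ZT 2.8) were among the largest. In chow dark-feeding Kcnj14, the silent subunit Kcnf1 (0.70, ZT 12.6) and Kcnk13 (0.52, ZT 9.6) were. Chow light-feeding was led by Kcna3 (0.87, ZT 20.1), Kcns1 (0.84, ZT 2.9), Kcna1 (0.74, ZT 19.1) and Kcnh6 (0.72, ZT 8.2). In HFD ad libitum Kcnn4 (1.06, ZT 7.4), Kcnj14, Kcnj16 (0.71, ZT 7.4) and Kcng2 (0.48, ZT 2.6) led, and in HFD dark-feeding Kcnn4 (1.17, ZT 4.4), Kcnk5 (1.01, ZT 6.9) and Kcng1 (0.73, ZT 18.4) were among the largest. HFD light-feeding had only Kcna1 (0.41, ZT 0.3) and Kcnh1 (0.35, ZT 1.1).

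In chow light-feeding, 13 of the 24 peaks fell between ZT 18 and 22: Kcna1, Kcna3, Kcna6, Kcnb2, Kcnd2, Kcnh1, Kcnj10, Kcnj12, Kcnj2, Kcnj3, Kcnk1, Kcnq3 and Kcnv1. Oligodendrocyte markers were called as rhythmic there for 10 of 12 and astrocyte markers for 8 of 13. In HFD ad libitum 13 of 17 microglial markers and in HFD dark-feeding 10 of 17 were called as rhythmic, and Kcnn4 was called in both. So were 5 of 7 Purkinje markers in HFD ad libitum and 5 of 9 granule neuron markers in HFD dark-feeding. A link of Kcnn4 to any of these markers was not tested. With the title number as a spline Kcnn4 was called in neither treatment (edgeR adjusted p = 0.206 and 0.754). Between the diets, the rhythm differed under light-feeding for 7 members (8.81% of all genes) and under ad libitum and dark-feeding for none (0% and 0%; 12 and 14 at an unadjusted p under 0.05). These were Kcna1 (peak-to-trough of the difference 0.77; edgeR adjusted p = 0.00433), Kcnd2 (0.62; 0.0125), Kcnj2 (0.71; 0.0171), Kcna6 (0.60; 0.0204), Kcna3 (1.35; 0.0209), Kcnh1 (0.42; 0.0451) and Kcnq3 (0.63; 0.0482). None of the 7 was called with runs as the unit (0% of all genes), with the title number as a spline (0%) or with the marker scores as covariates (0.00695%). Without the 6 libraries apart 17 members were called (15.2%). In the rhythm of chow light-feeding, no member was called in the first 3 of these settings (0%, 0% and 0.0417%).

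Other genes of potassium transport outside the Kcn family were read from a list of 30, of which 28 were tested. These include the sodium pump, cation-chloride cotransporters, HCN channels and channel-anchoring proteins. With HFD, 4 were higher and 2 lower under ad libitum, 12 and 4 under dark-feeding and 15 and 6 under light-feeding. In all, 21.4%, 57.1% and 75.0% of the list were called, beside 20.2%, 45.8% and 50.3% of all genes. Slc12a2, the sodium-potassium-chloride cotransporter, was higher by 0.22, 0.33 and 0.33 in log2, and Cntnap2, which clusters Kcna channels at the axon, by 0.20, 0.28 and 0.33. Amigo1, a cell-adhesion partner of delayed rectifiers, was higher by 0.17 and 0.29 under dark-feeding and light-feeding, and Abcc9, a subunit of the ATP-sensitive channel, fell by 0.35 and 0.52. The HFD comparison of light-feeding with ad libitum had 6 higher and 2 lower (28.6% of the list, beside 10.4% of all genes). The interaction with light-feeding had 3 higher and 1 lower (14.3%, beside 9.49%). With runs of titles as the unit, 0% of all genes were called in either comparison. Over all libraries 8 of the 28 were called as rhythmic (28.6%, beside 41% of all genes).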

How the data were processed

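Estimated count values per gene (8.03% of entries not whole) were deposited by the authors for 200 libraries made with a strand-specific kit after mRNA enrichment, per the labels, and were rounded for the tests. The authors also deposited FPKM values (per length and library size), used for levels and 1 alternative. The build is Rnor 6.0 per the submitters' processing notes; aligner and counter, and whether counting used strand, were not given in the sources used. Reads of overlapping antisense genes and of near-identical channel genes may be shared. Of 20361 genes, 14393 passed edgeR's filterByExpr. Tests were edgeR 4.0.16 quasi-likelihood tests (R 4.3.3) with TMM scaling, Benjamini-Hochberg over all genes tested and a threshold of 0.05. ZT was a factor in the comparisons of treatments and in the interactions. Rhythm fits held cosine and sine terms instead, and slope fits held treatment by time as a factor. DESeq2 1.42.0 and limma 3.58.1 were alternatives, the latter on log2(FPKM + 0.1). Scripts were tested on simulated data. Named genes followed a rule: the largest changes past the threshold, or the 2 smallest p where none passed, the 12 highest FPKM, and 7 microglial channels. Some genes that the rule names are counted but not reported here. Members, gene lists and comparisons were chosen with earlier results of these data known.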

Additional observations from a re-analysis of the deposited data

Results flagged for a closer look

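In groups of 5 to 7 libraries, 1 of the 36 groups of Kcnj14 held a library far from the others, and chance flags about 1 group in 20. It was the lowest Kcnj14 library of the HFD dark-feeding group at ZT 22, at 46.1 CPM.

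The diet difference under light-feeding and under ad libitum feeding differed by the interaction for Kcnb2 (0.43 in log2), Kcnd2 (0.28), Kcnj12 (0.28), Kcnj11 (0.25), Kcnv1 (0.25), Kcnj3 (0.21) and Kcnq5 (-0.22). The daily time course differed between diets under light-feeding for Kcna1 (0.77), Kcnd2 (0.62), Kcnj2 (0.71), Kcna6 (0.60), Kcna3 (1.35), Kcnh1 (0.42) and Kcnq3 (0.63), as the peak-to-trough size of the difference. By schedule, the time course of Kcnj14 differed between light-feeding and ad libitum in chow (0.60) and HFD (0.79), and between light-feeding and dark-feeding in chow (0.80) and HFD (0.48).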

How the results depend on the processing

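No paired analysis was possible because the labels give no replicate number shared between groups. The title series follows the diet, and most HFD ad libitum libraries have low title numbers. The 6 HFD ad libitum libraries with title numbers above 46 do not cover all times, so fits on those titles compare fewer times. Wherever marker scores served as covariates for diet, schedule or time, the microglial score was left out and treatment and time means were kept. Why counts change with runs, the title spline or the marker scores was not tested, beyond the fewer units that runs leave. Low-count members are limited by depth.

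Counts of called members were within 1.5 times of the main count except as follows. With DESeq2 the rhythm calls were 4 (HFD light-feeding) and 10 (chow ad libitum), the rhythm difference by diet under dark-feeding 1 and the schedule difference in HFD, light-feeding against ad libitum, 5. With limma on FPKM they were 1 (rhythm, HFD light-feeding), 4 (difference by diet, light-feeding) and 5 (schedule, chow light-feeding against ad libitum). Without the filter on low counts, HFD light-feeding against ad libitum had 5. With marker scores, rhythm had 3 (HFD ad libitum), 9 (HFD dark-feeding), 3 (chow ad libitum) and 0 (chow light-feeding), diet 2 (dark-feeding) and 7 (light-feeding), HFD light-feeding against ad libitum 0, difference by diet 1 (dark-feeding) and 0 (light-feeding), interaction with light-feeding 1, and schedule 1, 6, 0 and 10 (HFD against ad libitum, HFD against dark-feeding, chow against ad libitum, chow against dark-feeding). With runs as the unit, rhythm had 1 (HFD ad libitum), 6 (HFD dark-feeding), 0 (HFD light-feeding), 5 (all libraries), 1 (chow ad libitum), 1 (chow dark-feeding) and 0 (chow light-feeding), diet 0 (ad libitum) and 13 (dark-feeding), HFD light-feeding against ad libitum 0, difference by diet under light-feeding 0, interaction with light-feeding 0, and schedule 0, 3, 0 and 0. With the title spline, rhythm had 0 (HFD dark-feeding), 0 (HFD light-feeding), 3 (chow ad libitum), 2 (chow dark-feeding) and 0 (chow light-feeding), HFD light-feeding against ad libitum 0, difference by diet under light-feeding 0, interaction with light-feeding 0, schedule 1, 0, 0 and 9, and the mural slope 21. With titles above 46, HFD light-feeding against ad libitum had 0. Without the 6 libraries apart (chosen after seeing the data), chow light-feeding against ad libitum had 2, the difference by diet under light-feeding 17 and the schedule difference in HFD against ad libitum 7. With the other 7 scores, slopes had 4 (Purkinje), 1 (astrocyte), 0 (endothelial), 18 (microglia), 0 (mural) and 32 (oligodendrocyte).

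With each time left out in turn, rhythm ranged from 2 to 11 (HFD ad libitum), 12 to 17 (HFD dark-feeding), 0 to 5 (HFD light-feeding), 15 to 35 (all libraries), 1 to 12 (chow ad libitum), 6 to 16 (chow dark-feeding) and 6 to 28 (chow light-feeding), diet from 3 to 13, 23 to 34 and 27 to 35 (ad libitum, dark-feeding, light-feeding), HFD light-feeding against ad libitum from 0 to 13 and against dark-feeding from 0 to 1, chow light-feeding against ad libitum from 0 to 9, difference by diet from 0 to 5 (dark-feeding) and 0 to 16 (light-feeding), schedule from 1 to 5, 10 to 21, 0 to 10 and 18 to 34, and the interaction from 0 to 2 (dark-feeding) and 0 to 20 (light-feeding).

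These named values changed sign. With marker scores, diet under light-feeding gave Kcna3 -0.01, Kcnab2 0.01 and Kcnj16 0.17, and under dark-feeding Kcnj16 0.25. With the title spline, HFD light-feeding against ad libitum gave Kcnd2 -0.01 and Kcne2 0.07, the interaction gave Kcnb2 -0.02 (dark-feeding) and -0.03 (light-feeding), Kcnd2 -0.10, Kcnj3 -0.07 and Kcnv1 -0.01, and the peak moved to the other side of the day for Kcng2 in HFD ad libitum (0.28) and Kcnh6 in chow light-feeding (0.14). With titles above 46, HFD light-feeding against ad libitum gave Kcnc4 -0.11, Kcnd2 -0.20, Kcne2 0.14, Kcnj12 -0.13, Kcnj9 -0.04 and Kcnk3 -0.09, and HFD dark-feeding against ad libitum Kcnj12 -0.09. With the other 7 scores, slopes were Kcnip2 -0.00 and Kcnj13 -0.08 (astrocyte), Kcnj16 -0.00 (Purkinje) and -0.02 (mural), and Kcnn4 -0.00 (Purkinje).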
